A study of Mus musculus with 8 samples.

Results

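The transcriptome of control islets was described from 4 of the 8 samples of the series: the lanes of the 2 libraries titled Flox. The samples were chosen by their titles alone, and no measured value was used. They are RNA sequencing libraries of pancreatic islets from mice labelled Flox/Flox, with the strain background C57BL/6, at an age of 1 year. The series concerns Tead1, a transcription factor through which the Hippo pathway acts on DNA. The control animals thus carry a floxed allele, and the labels give no Cre for this group. Islets were released with collagenase, enriched on a density gradient and selected by hand before freezing, per the labels' protocols, so some tissue from around the islets can remain. Each library was read on 2 lanes. The design text speaks of pools of 3 for each library, whereas the descriptions carry 2 numbers for library 1 and 1 number for library 2. The size of the pools is therefore unclear, and the spread between the libraries may be biological or technical.

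Pancreatic islets are small endocrine organs scattered through the exocrine pancreas. Most cells of a mouse islet are β-cells, which make insulin, and smaller numbers of α-, δ-, polypeptide and ε-cells make glucagon, somatostatin, pancreatic polypeptide and ghrelin. Mice have a pair of insulin genes, Ins1 and Ins2, unlike humans. An insulin precursor enters the endoplasmic reticulum, is folded there, is cut by prohormone convertases and is stored with granins in dense-core granules until glucose triggers release.

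Exon reads totalled 21938244 in library 1 and 14069569 in library 2. The lanes of a library differed little beyond sampling noise (chi-square per degree of freedom 1.20 in library 1 and 1.16 in library 2, against 66.8 between the libraries), so their reads were summed. Of 48709 genes in the tables, 13806 had at least 10 exon reads in both libraries and are called detected here. Of these, 13059 were protein-coding. A further 788 genes reached that number in library 1 only and 640 in library 2 only. Levels are given as TPM, exon reads per exon base scaled to a library sum of 1000000, which allows genes to be compared with each other. CPM is exon reads scaled to a library sum of 1000000 without regard to length, and compares 1 gene between libraries. With 1 group of 2 libraries no test was made: values are given per library, and intervals are exact 95% binomial intervals that cover counting error only.

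Hormone genes headed the islet transcriptome. Ins2 was the highest gene in both libraries, with 210196 TPM in library 1 and 241429 TPM in library 2. Ins1 came next, with 120380 TPM in library 1 and 142440 TPM in library 2. Amylin (Iapp), which β-cells release together with insulin, was the next gene in both, and glucagon (Gcg) followed it. These 4 ranks were the same in both libraries. Mitochondrially encoded subunits of the respiratory chain, the granin Chga, the granin Scg2 and the hormones Sst, Ppy and Pyy filled most of the next places. The ribosomal RNA gene Rn18s-rs5, with 8101 TPM in library 1 and 12913 TPM in library 2, and its neighbour Gm26917, with 5885 TPM in library 1 and 10971 TPM in library 2, stood among them. TPM counts exon reads only, and most reads of these genes were intron reads. For Rn18s-rs5 these were 2429754 (97.7% of its reads) in library 1 and 89803 (61.1%) in library 2. Its TPM therefore does not give the order of its reads between the libraries. Of the 20 highest genes by TPM in each library, 18 were shared, and of the 100 highest, 79 were shared. Across the 13806 detected genes Pearson's r of log2 CPM between the libraries was 0.963 and Spearman's rho was 0.971; genes are not independent replicates, and this is a description.

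Transcript abundance was concentrated in few genes. The 10 most-read genes took 27.1% of exon reads in library 1 and 26.9% in library 2. Per length the concentration was steeper, since hormone transcripts are short. The 10 highest genes held 49.4% of TPM in library 1 and 51.5% in library 2. The TPM sum passed its midpoint after 11 genes in library 1 and after 9 in library 2, whereas exon reads needed 366 and 403 genes. At the other end, the median detected gene stood at 10.7 TPM in library 1 and 11.6 TPM in library 2. In both libraries 36 genes reached 1000 TPM, and 636 reached 100 TPM.

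**Figure D1:**
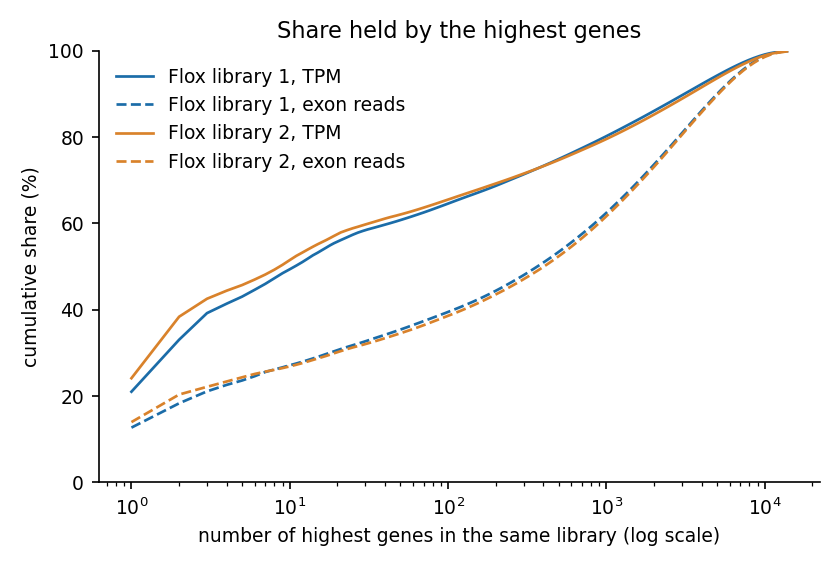
Cumulative share (percent, vertical axis) of TPM (solid lines) and of exon reads (dashed lines) held by the highest genes of each Flox library, against the number of genes on a log axis. The 10 highest genes held 49.4% of TPM in library 1 and 51.5% in library 2, and the lines of the libraries lie close together.

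The 8 hormone genes together took 23.0% of exon reads in library 1 (95% interval 22.997 to 23.032) and 23.9% in library 2. They held 43.0% of TPM in library 1 and 46.3% in library 2. Insulin, the sum of Ins1 and Ins2, took 18.3% of exon reads in library 1 and 20.4% in library 2 (mean 19.3 ± 1.44, SD, n = 2). It made up 79.6% of the hormone reads in library 1 and 85.4% in library 2. The hormones of the islet thus read chiefly as insulin in both libraries, with the higher share in library 2.

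Ins2 (ENSMUSG00000000215, mm10 chromosome 7, 142678656 to 142743381, minus strand) had 2785896 exon reads in library 1 and 1966292 in library 2. Ins1 (ENSMUSG00000035804, mm10 chromosome 19, 52264323 to 52265456, plus strand) had 1235539 exon reads in library 1 and 898363 in library 2. All exon reads of both genes were unique in these tables, so reads shared between them do not enter the ratio. The ratio of Ins2 to Ins1 was 2.25 in exon reads in library 1 and 2.19 in library 2. Per exon length, the ratio was 1.75 in library 1 and 1.69 in library 2. The span annotated for Ins2 covers 64726 bases with 20 exons, far longer than that of Ins1, at 1134 bases with 2 exons, so the lengths used for the ratio rest on that annotation.

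Iapp (ENSMUSG00000041681, chromosome 6) had 61625 TPM in library 1 and 41595 TPM in library 2, and 73.5% and 73.9% of its exon reads were unique. Its CPM was 1.55 times as high in library 1 as in library 2 (counting interval 1.54 to 1.55). Gcg (ENSMUSG00000000394, chromosome 2), the α-cell hormone that raises blood glucose, had 22015 TPM in library 1 and 18845 TPM in library 2. Sst (chromosome 16), through which δ-cells restrain their neighbours, had 6006 TPM in library 1 and 7582 TPM in library 2. The hormones of the δ- and polypeptide cells ran the other way from glucagon, a little higher in library 2. Ppy, pancreatic polypeptide, had 5938 TPM in library 1 and 6468 TPM in library 2. Pyy, peptide YY, had 3530 TPM in library 1 and 4346 TPM in library 2. Ghrl, the ε-cell hormone ghrelin, stood far below the others, with 32 exon reads (3.22 TPM) in library 1 and 15 exon reads (2.46 TPM) in library 2. None of the 8 hormones differed by 2-fold in CPM between the libraries, and 7.80% of all detected genes did. That share is lower among well-read genes: with at least 50 exon reads in both libraries, 464 of 11341 genes passed 2-fold. In a list this short, a count this low lies near that share and is not a result about the hormones. Insulin exceeded glucagon by 15.0 times in TPM in library 1 and by 20.4 times in library 2. Minor islet peptides were scarce beside these. Of 15 listed, 3 were detected, led by Ucn3, a peptide of mature β-cells, with 684 TPM in library 1 and 704 TPM in library 2. Neuropeptide Y (Npy) had 7.70 TPM in library 1 and 26.8 TPM in library 2, and Vip had 4.54 TPM in library 1 and 8.23 TPM in library 2. The other 12, among them Cck, Gip and Gast, had fewer than 10 exon reads in at least 1 library.

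**Figure D2:**
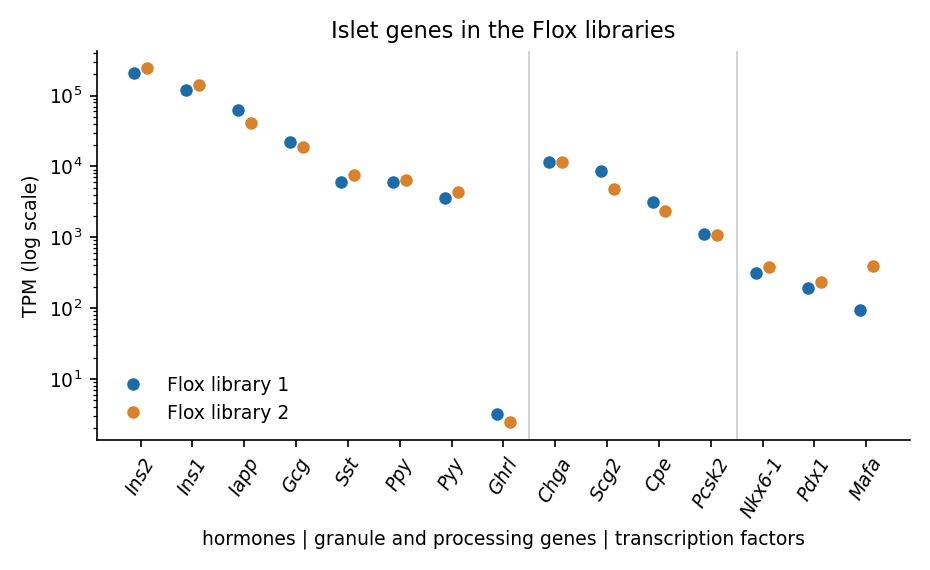
TPM (log axis) of the 8 hormone genes, 4 granule and processing genes and 3 transcription factors in Flox library 1 and Flox library 2, 1 point per library. Ins2 stands highest, at 210196 TPM in library 1 and 241429 TPM in library 2, and Ghrl lowest, at 3.22 and 2.46 TPM, and Mafa is the gene whose points lie farthest apart, at 93.9 TPM in library 1 and 388 TPM in library 2.

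The 250 bases before the start of 3 of the 4 highest hormone genes are shown, because these genes head the rank order and their promoters are classical binding places of islet transcription factors. They come from RefSeq on GRCm38.p6, which has the coordinates of mm10, and are written 5′ to 3′ on the strand of the gene. Capitals mark CATCTG, an E-box that can be bound by dimers with Neurod1, and TAAT, the core that homeodomain factors such as Pdx1 recognise, searched on both strands (so CAGATG and ATTA as well). The Ins1 window is chr19:52264047-52264296 on the plus strand and ends before the RefSeq start, which lies 26 bases ahead of the start in the deposited tables. The Iapp window is chr6:142298175-142298424 on the plus strand, and the Gcg window is chr2:62483654-62483903 on the minus strand.
Ins1: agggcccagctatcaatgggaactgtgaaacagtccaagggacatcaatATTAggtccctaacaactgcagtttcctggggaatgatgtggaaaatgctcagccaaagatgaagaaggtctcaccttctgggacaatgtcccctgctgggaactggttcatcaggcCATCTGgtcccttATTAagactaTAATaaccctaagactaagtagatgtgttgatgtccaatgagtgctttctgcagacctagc
Iapp: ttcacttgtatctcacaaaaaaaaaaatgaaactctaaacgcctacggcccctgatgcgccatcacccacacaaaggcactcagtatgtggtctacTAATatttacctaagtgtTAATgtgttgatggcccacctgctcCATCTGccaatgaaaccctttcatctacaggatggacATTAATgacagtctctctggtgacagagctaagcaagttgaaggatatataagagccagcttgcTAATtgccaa
Gcg: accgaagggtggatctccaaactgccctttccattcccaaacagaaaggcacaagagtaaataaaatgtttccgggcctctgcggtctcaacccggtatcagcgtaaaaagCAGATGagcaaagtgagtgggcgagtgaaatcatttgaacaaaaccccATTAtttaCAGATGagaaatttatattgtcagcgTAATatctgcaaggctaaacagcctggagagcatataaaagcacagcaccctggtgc
CATCTG occurred 1 time in the Ins1 window, 1 time in the Iapp window and 2 times in the Gcg window. TAAT occurred 3, 5 and 2 times in the same windows, with 2 of the Iapp matches overlapping each other. Of all 32851 RefSeq windows of 250 bases, 14.4% held CATCTG and 54.9% held TAAT. Of the 7 hormone genes with a window, 3 held CATCTG and 4 held TAAT. A gene was counted if any of its windows matched, whereas the shares are of single windows, so these are unlike measures. A match is a description of letters, not a site.

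Genes of the secretory route stood next to the hormones. Of the 16 granin and granule membrane genes, all 16 were detected, and they took 3.00% of exon reads in library 1 and 2.30% in library 2. Chga, chromogranin A, which helps granules form, had 11636 TPM in library 1 and 11587 TPM in library 2. Scg2, secretogranin II, had 8525 TPM in library 1 and 4859 TPM in library 2, and Scg3 and Chgb followed with 2277 and 1251 TPM in library 1 and 1391 and 884 TPM in library 2. Slc30a8, the zinc transporter of insulin granules, had 1021 TPM in library 1 and 1027 TPM in library 2. Prohormone processing was led by Cpe, the carboxypeptidase that trims the convertase products, with 3131 TPM in library 1 and 2364 TPM in library 2. Of the convertases, Pcsk2 had 1107 TPM in library 1 and 1081 TPM in library 2, and Pcsk1 had 354 TPM in library 1 and 330.4 TPM in library 2. Pcsk2 thus stood above Pcsk1 per length in both libraries. The glutaminyl cyclase Qpct fell under 10 reads in library 2, with 82 exon reads in library 1 and 7 in library 2.

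All 22 genes of entry into the endoplasmic reticulum and all 25 of folding and stress were detected. Tram1, a partner of the protein-conducting channel, was highest of the entry list, with 464 TPM in library 1 and 414 TPM in library 2. Sec61b, a subunit of that channel, had 389 TPM in library 1 and 316 TPM in library 2. The folding list ran from 4.66 TPM (Trib3) to 1562 TPM (Ero1lb) in library 1, and the same genes marked its ends in library 2, at 7.73 and 1757 TPM. Ero1lb is an oxidase of the β-cell endoplasmic reticulum that helps form disulfide bonds. Hspa5, the chaperone BiP, had 1413 TPM in library 1 and 746 TPM in library 2. The disulfide isomerase P4hb had 958 TPM in library 1 and 834 TPM in library 2. Herpud1, a gene of the unfolded protein response, had 329 TPM in library 1 and 147 TPM in library 2. Of the 25 genes, Herpud1 alone passed 2-fold in CPM between the libraries. This is near the share of well-read genes given above (7.80% of all detected genes), so the count is not a result about the list. Without the hormones, the secretory lists (granule, processing, entry and folding, 71 genes) took 6.31% of exon reads in library 1 and 5.14% in library 2.

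Transcription factors of the islet were detected at levels far below the hormones. Of 31 listed, 26 were detected, with a median of 34.9 TPM over the detected members in library 1 and 40.4 TPM in library 2. Nkx6-1, a homeodomain factor of β-cells, had 313 TPM in library 1 and 379.6 TPM in library 2. Pdx1, which binds insulin promoters, had 189.6 TPM in library 1 and 233 TPM in library 2. Insm1, Neurod1 and Nkx2-2, which all endocrine islet cells use, lay between 129 and 163 TPM in library 1 and between 151 and 179 TPM in library 2. Mafa, a bZIP activator of insulin genes in mature β-cells, had 93.9 TPM in library 1 and 388 TPM in library 2. Of the 26 members, Mafa alone passed 2-fold in CPM between the libraries. With 7.80% of all detected genes past 2-fold, and fewer of the well-read ones, this count is not a result about the list. Irx2, a factor of α-cells, was lower, with 8.81 TPM in library 1 and 9.13 TPM in library 2. Foxa1, Pax4, Pou3f4, Onecut1 and Ptf1a fell under 10 reads in at least 1 library.

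Of the genes that couple glucose to insulin release, G6pc2, an islet glucose-6-phosphatase, was highest, with 3323 TPM in library 1 and 1481 TPM in library 2. Slc2a2, the β-cell glucose transporter, had 311 TPM in library 1 and 401 TPM in library 2. The subunits of the ATP-sensitive potassium channel, Abcc8 and Kcnj11, had 206 and 89.8 TPM in library 1 and 333 and 92.1 TPM in library 2. The incretin receptor gene Glp1r led the receptors, with 218 TPM in library 1 and 341 TPM in library 2. The α2A-adrenergic receptor (Adra2a), which inhibits release, had 151 TPM in library 1 and 105 TPM in library 2. The fatty acid receptor Ffar1 had 85.3 TPM in library 1 and 119 TPM in library 2, and the somatostatin receptor Sstr3 had 105 TPM in library 1 and 103 TPM in library 2. All 15 exocytosis genes were detected, led by complexin 2 (Cplx2) with 233 TPM in library 1 and 257 TPM in library 2. Complexin 1 (Cplx1), its neuronal relative, had 0.724 TPM in library 1 and 0.736 TPM in library 2.

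Genes that mature β-cells keep silent, often called disallowed genes, were low. All 17 listed were detected, but their median was 2.12 TPM in library 1 and 1.59 TPM in library 2, under the median of all detected genes. The lactate transporter Slc16a1 had 0.582 TPM in library 1 and 0.619 TPM in library 2. Hexokinase Hk2 had 0.232 TPM in library 1 and 0.324 TPM in library 2, and Ldha, lactate dehydrogenase A, had 4.04 TPM in library 1 and 5.65 TPM in library 2. Aldh1a3, a retinaldehyde dehydrogenase, had 5.77 TPM in library 1 and 2.65 TPM in library 2. The highest of the 17 was Zfp36l1, an RNA-binding protein, with 18.1 TPM in library 1 and 10.3 TPM in library 2.

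Proliferation genes were also low in these islets of 1-year-old mice. Of 20 listed, 13 were detected. The clamp protein Pcna led with 41.1 TPM in library 1 and 24.5 TPM in library 2. Mki67, a marker of cycling cells, had 333 exon reads (3.28 TPM) in library 1 and 84 exon reads (1.34 TPM) in library 2. The mitotic genes Cdk1, Ccnb1, Ccnb2, Aurkb, Bub1, Birc5 and Plk1 had fewer than 10 exon reads in at least 1 library. Lymphocyte markers, given with the cell types, were higher in library 1 too, and their part in the Mki67 values was not tested. Among inhibitors, Cdkn1b (p27) had 57.9 TPM in library 1 and 58.2 TPM in library 2, and Cdkn2a, a gene linked with aging of β-cells, had 1.77 TPM in library 1 and 1.37 TPM in library 2.

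Tead1 was the one TEAD gene expressed above 1 TPM. Tead1 (ENSMUSG00000055320, mm10 chromosome 7, 112679318 to 112906807, plus strand) had 19.2 TPM in library 1 and 25.1 TPM in library 2. Tead2 had 0.413 TPM in library 1 and 0.505 TPM in library 2, Tead3 had 0.338 and 0.549 TPM, and Tead4 had 0.165 and 0.313 TPM. The coactivator Yap1 had 0.888 TPM in library 1 and 1.24 TPM in library 2, and its paralogue Wwtr1 (TAZ) had 4.68 TPM in library 1 and 4.72 TPM in library 2. The kinase Lats1, which phosphorylates both coactivators, stood highest in the list of 21 genes, with 51.3 TPM in library 1 and 55.6 TPM in library 2. Cyr61, a TEAD target that is also an immediate early gene, had 30.4 TPM in library 1 and 2.79 TPM in library 2. Cyr61 was the list's single detected member past 2-fold in CPM, a count near the share of all detected genes (7.80%).

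The marker lists gave the make-up of the preparation. In bulk RNA, fewer cells of a type and less RNA per cell cannot be told apart, so each share is a share of transcripts. The label islets fitted the markers: the 14 β-cell markers were all detected and held 40.0% of TPM in library 1 and 43.2% in library 2. The α-cell list held 2.53% of TPM in library 1 and 2.09% in library 2. The polypeptide and ε-cell list held 0.947% of TPM in library 1 and 1.08% in library 2, and the δ-cell list 0.621% in library 1 and 0.773% in library 2. Most TPM of these endocrine lists came from their hormone genes, so the shares largely repeat the hormone levels above. The median β-cell marker stood at 499 TPM in library 1 and 553 TPM in library 2. Ttr, transthyretin, was the next α-cell marker after glucagon, with 2926 TPM in library 1 and 1769.5 TPM in library 2.

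**Figure D3:**
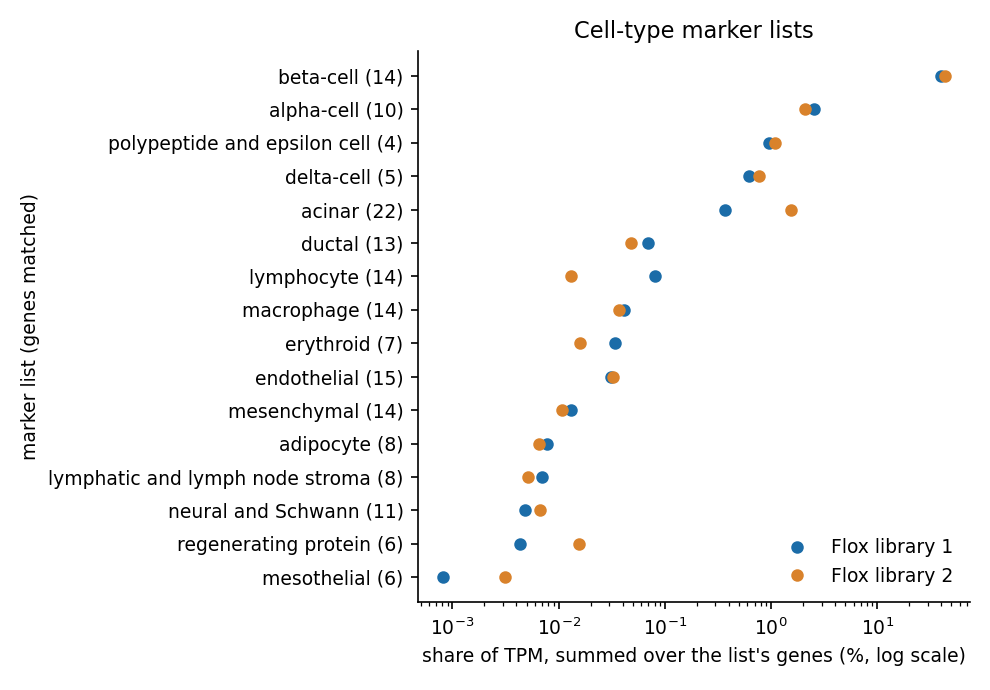
Share of TPM (percent, log axis) summed over each of 16 cell-type marker lists in Flox library 1 and Flox library 2; the number of genes matched stands in parentheses. The β-cell list stands highest in both libraries, and the acinar (0.369% in library 1, 1.55% in library 2), lymphocyte, regenerating protein and mesothelial lists show the widest gaps.

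Acinar cells, the enzyme-making cells of the exocrine pancreas, left the clearest trace of tissue other than islet. The list took 0.253% of exon reads in library 1 (95% interval 0.251 to 0.255) and 0.951% in library 2 (0.946 to 0.956). Of the 22 acinar genes 21 were detected, and each of the 21 was at least 2-fold higher in CPM in library 2; of all detected genes 5.27% were. The chymotrypsinogen gene Ctrb1 had 503 TPM in library 1 and 2320 TPM in library 2, a CPM ratio of library 2 over library 1 of 4.42 (4.27 to 4.58). Trypsinogen Prss2 had 358 TPM in library 1 and 1587 TPM in library 2, and the lipase Pnlip had 337 TPM in library 1 and 1308 TPM in library 2. The amylase gene Amy2a5 had 265 TPM in library 1 and 859 TPM in library 2, but 0.0751% and 0.0991% of its exon reads were unique, since amylase copies are near-identical. The acinar factor Ptf1a had 1 exon read in library 1 and 7 in library 2. Reg1, a lectin of acinar cells, had 41.1 TPM in library 1 and 147 TPM in library 2.

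Ductal markers were mixed. Krt8, Krt18 and Epcam, which islet endocrine cells also express, had 194, 178 and 137 TPM in library 1 and 90.4, 124 and 111 TPM in library 2. The defining duct markers were low: Krt19 had 0.320 TPM in library 1 and 4.26 TPM in library 2, Sox9 had 0.335 and 0.467 TPM, and the chloride channel Cftr had 0.0510 and 0.0415 TPM. Endothelial markers took 0.0648% of exon reads in library 1 and 0.0663% in library 2. Of these 15 markers, 14 were detected and none passed 2-fold in CPM. As 7.80% of all detected genes did, a list this short would hold few, and the count is not a result about it. The highest endothelial marker was Plvap, of fenestrated capillaries, with 123 TPM in library 1 and 130 TPM in library 2. The pericyte gene Rgs5 led the mesenchymal list, with 81.5 TPM in library 1 and 73.5 TPM in library 2, whereas the collagen Col1a1 had 1.51 TPM in library 1 and 1.23 TPM in library 2.

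Immune markers were scarce as well. The macrophage list, with 14 of 15 entries matched and 14 detected, held 0.0416% of TPM in library 1 and 0.0370% in library 2. Cd74, the invariant chain of antigen presentation, was its highest member, with 224 TPM in library 1 and 152 TPM in library 2. Its complement gene C1qa had 78.5 TPM in library 1 and 108 TPM in library 2. Lymphocyte genes differed between the libraries, with 0.0360% of exon reads in library 1 and 0.00417% in library 2. The immunoglobulin heavy chain gene Ighm had 4276 exon reads in library 1 and 85 in library 2, a CPM ratio of library 1 over library 2 of 32.3 (26.0 to 40.5). The light chain gene Igkc, with no unique reads, had 2956 exon reads in library 1 and 365 in library 2. The B-cell marker Ms4a1 had 143 exon reads in library 1 and 9 in library 2. Of the T-cell genes, Cd3e had 17 exon reads in library 1 and 2 in library 2, Cd2 had 40 and 2, and Cd4 had 17 and 15. Of the 14 lymphocyte genes, 4 were detected. The beta-globin gene Hbb-bs, of red blood cells, had 164 TPM in library 1 and 56.6 TPM in library 2.

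Several other cell types lacked their defining markers. The adipocyte genes Adipoq, Cfd, Lep and Retn had 0 exon reads in both libraries, although Lpl, a lipase with wider expression, had 45.7 TPM in library 1 and 54.0 TPM in library 2. The glial genes Sox10 and Gfap had 0.109 and 0.0469 TPM in library 1 and 0.238 and 0.0764 TPM in library 2. Of 6 mesothelial genes 1 was detected: Msln had 8.01 TPM in library 1 and 31.1 TPM in library 2, while Upk1b, Wt1, Lrrn4, Upk3b and Muc16 had fewer than 10 exon reads in at least 1 library. Genes of the Y chromosome were expressed, with Ddx3y at 39.0 TPM in library 1 and 35.6 TPM in library 2. Xist, the RNA of the inactive X chromosome, had 12 exon reads in library 1 and 18 in library 2.

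The share of intron reads set the libraries apart. Intron share is intron reads over intron plus exon reads. Introns are present in unspliced RNA and are mostly absent from mature messenger RNA. Over all genes it was 28.8% in library 1 and 43.1% in library 2. Part of this came from genes for structural RNA: 17044 genes have no annotated exon in the tables, so their reads count as intron reads. They held 2249310 intron reads in library 1 and 1179656 in library 2, led by Rn7s1, the RNA of the signal recognition particle, with 1444230 and 725901. The ribosomal RNA gene Rn18s-rs5 added 2429754 intron reads in library 1 and 89803 in library 2, and its neighbour Gm26917 added 639814 and 506550. The mitochondrial ribosomal RNA mt-Rnr2 had 89227 reads in library 1 and 123 in library 2. Without these genes the intron share was 14.0% in library 1 and 38.9% in library 2.

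The higher intron share of library 2 ran through nearly the whole transcriptome. The median over detected genes was 13.0% in library 1 and 38.8% in library 2. Of 13806 genes, 12982 (94.0%) had the higher share in library 2, 650 had it in library 1, and 174 were equal. At least 50% of reads were intronic in 1045 genes (7.57%) in library 1 and in 4944 genes (35.8%) in library 2. Longer genes had higher shares: the median over the quintile of shortest genes was 5.06% in library 1 and 11.6% in library 2, and over the quintile of longest genes it was 26.8% in library 1 and 68.1% in library 2. The order of genes was largely shared, with Spearman's rho of 0.837 between the libraries across genes, as a description.

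**Figure D4:**
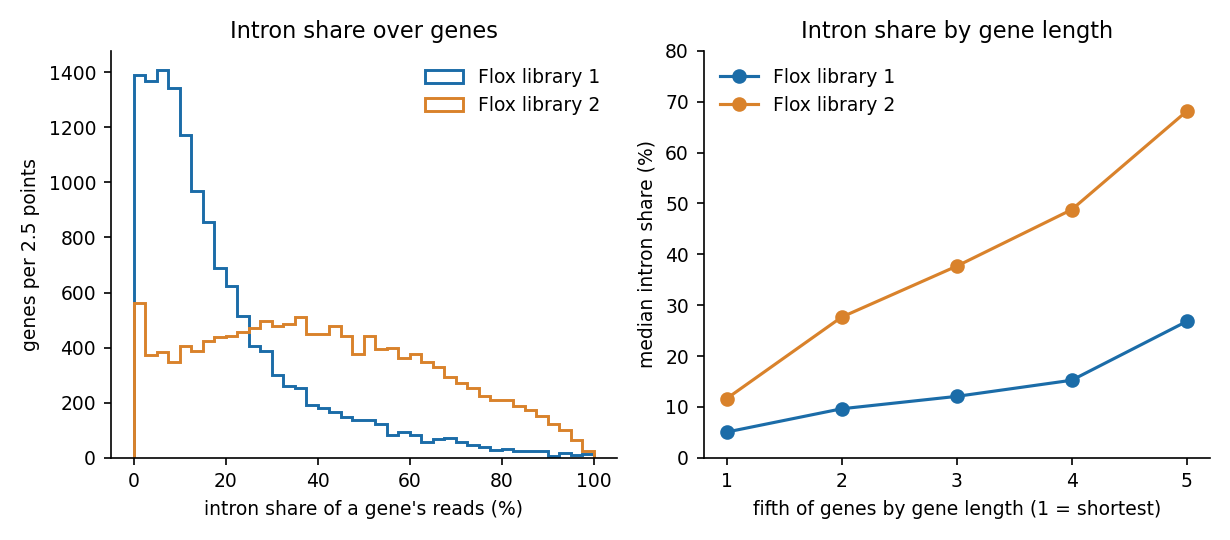
Left, number of detected genes by intron share (percent, bins of 2.5 points) in Flox library 1 and Flox library 2; right, median intron share in 5 groups of genes by gene length. The median is 13.0% in library 1 and 38.8% in library 2, and in both it climbs with gene length.

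Among genes with annotated intron sequence, the insulin genes and several acinar enzyme genes had the lowest intron shares. Ins2 had 2512 intron reads in library 1 and 6097 in library 2, a share of 0.0901% in library 1 and 0.309% in library 2. Ins1 had a share of 0.194% in library 1 and 0.206% in library 2. Pooled over the 8 hormones the share was 0.253% in library 1 and 0.684% in library 2. Over the hormones other than insulin it was 0.761% in library 1 and 2.99% in library 2. Among these, Sst had 5.61% in library 1 and 5.43% in library 2, and Ppy had 0.156% and 0.560%. Over the acinar list the pooled share was 0.280% in library 1 and 1.05% in library 2. Of the 10 protein-coding genes with the lowest shares, counted among genes whose annotated exons cover less than their span and that had at least 1000 exon plus intron reads in each library, Ins1 and Ins2 were the hormones, and the others included 4 amylase copies, Ctrb1, Prss2 and Try4. Ribosomal protein genes had 0.953% in library 1 and 2.53% in library 2. Granule genes had 4.68% in library 1 and 28.4% in library 2, and islet transcription factors 18.3% in library 1 and 50.4% in library 2. The prohormone convertase Pcsk2, a long gene, had 9.34% in library 1 and 46.0% in library 2. Mitochondrially encoded genes, which have no introns, had 10.4% in library 1 and 9.92% in library 2, so their reads outside annotated exons did not move with the rest.

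The highest intron shares belonged mostly to long genes with few exon reads. Hs6st3, a heparan sulfate sulfotransferase, had 96.5% in library 1 and 99.1% in library 2, Kcnq1, a potassium channel, had 98.3% and 99.5%, and Zdhhc19 had 0 exon reads against 1531 intron reads in library 1 and 4272 in library 2. Some genes had intron reads in excess in library 1. Zc3h7a had 308838 intron reads in library 1 and 4438 in library 2, and Cdk8, a kinase of the Mediator complex, had 160351 in library 1 and 4772 in library 2, with 1138 and 1503 exon reads in library 1 and 1204 and 1538 in library 2. These 2 genes were named after their values were seen. The intron reads of Rn18s-rs5 and mt-Rnr2 given above were also higher in library 1, and their part in these values was not tested.

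In exon reads, 1077 of the 13806 detected genes (7.80%) differed at least 2-fold in CPM between the libraries. Of these, 350 (2.54%) were higher in library 1 and 727 (5.27%) in library 2. A pattern with exon length ran through the comparison: the median log2 ratio of library 1 over library 2 was 0.21 in the quintile of shortest exon length and -0.26 in the quintile of longest. Ribosomal protein genes, which are short, had a median log2 ratio of 0.62, with 3 of 82 detected members past 2-fold. The intron share differed in the same libraries, and its part in the exon counts was not tested.

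Immediate early genes, the transcription factors and regulators that cells switch on within minutes of a stimulus or of tissue handling, were the group most above in library 1. All 14 listed were at least 2-fold higher in CPM in library 1, against 2.54% of all detected genes. The list took 0.839% of exon reads in library 1 and 0.0898% in library 2. Fos had 43560 exon reads (1833 TPM) in library 1 and 1439 exon reads (98.6 TPM) in library 2, a CPM ratio of library 1 over library 2 of 19.4 (18.4 to 20.5). Fosb had 769 TPM in library 1 and 32.6 TPM in library 2, Jun had 660.5 and 74.5 TPM, and Egr1 had 699 and 77.3 TPM. Atf3, a stress-induced bZIP factor, had 3562 exon reads in library 1 and 14 in library 2, a ratio of 163 (97.1 to 299). The smallest ratio of the list was that of Jund, at 2.66 (2.53 to 2.80). For Fos the intron reads did not follow the exon reads, with 1030 in library 1 and 1499 in library 2, so its intron share was 2.31% in library 1 and 51.0% in library 2. Fosb had 5074 intron reads in library 1 and 1582 in library 2, higher in library 1 as its exon reads were. Of the 10 genes most above in library 1, 8 are known as genes that cell activity or stress induces (Fos, Fosb, Nr4a1, Atf3, Csrnp1, Npas4, Cyr61 and Arc), and Ighm and Lars2 were the others. Lars2, a mitochondrial leucyl-tRNA synthetase, had 7742 exon reads in library 1 and 190 in library 2; the mitochondrial ribosomal RNA reads given above were higher in library 1 too, and their part in this value was not tested.

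The 250 bases before the start of Fos are shown for this group, as its highest member. The RefSeq window is chr12:85473640-85473889 on the plus strand of GRCm38.p6, and capitals mark TGACG, which is a half-site of the cyclic AMP response element, and TATAAA, the box near the start of many promoters, searched on both strands (so CGTCA and TTTATA as well).
Fos: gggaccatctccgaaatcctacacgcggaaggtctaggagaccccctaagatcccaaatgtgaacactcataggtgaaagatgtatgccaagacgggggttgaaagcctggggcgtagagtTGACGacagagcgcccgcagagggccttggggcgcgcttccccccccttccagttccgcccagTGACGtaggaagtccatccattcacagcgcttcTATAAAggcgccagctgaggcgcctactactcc
TGACG occurred 2 times and TATAAA 1 time. Of the 12 immediate early genes with a window 8 held TGACG, and of all 32851 windows 17.8% did. For TATAAA it was 2 of 12 genes and 12.4% of all windows. Here too a gene was counted if any of its windows matched, whereas the shares are of single windows. No match says only that these letters are not in the window.

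**Figure D5:**
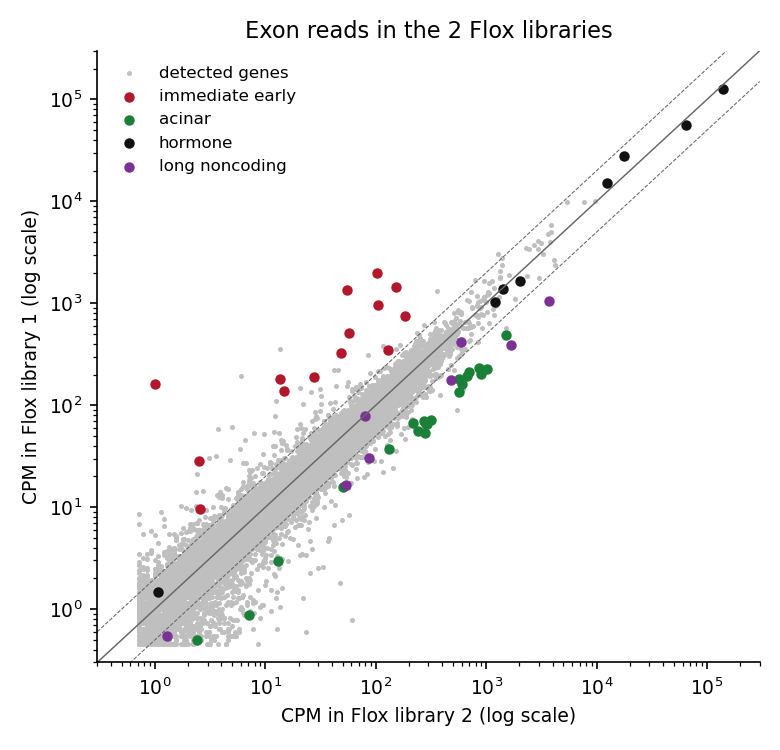
CPM of 13806 detected genes in Flox library 1 (vertical, log axis) against Flox library 2 (horizontal, log axis), with the line of equal values and dashed lines at 2-fold. The 14 immediate early genes lie above the upper dashed line, the 21 detected acinar genes below the lower one, and the 8 hormones between them.

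Long noncoding RNAs stood on the other side. Of 10 listed, 8 were detected, and 6 of them were at least 2-fold higher in library 2, against 5.27% of all detected genes. Malat1, which stays in nuclear speckles, had 1243 TPM in library 1 and 4612 TPM in library 2, a CPM ratio of library 2 over library 1 of 3.55 (3.50 to 3.61). Meg3 had 46.8 TPM in library 1 and 210.1 TPM in library 2, and Neat1, which builds paraspeckles, had 128 TPM in library 1 and 361 TPM in library 2. Gas5, a host gene of small nucleolar RNAs, differed little, with 45.0 TPM in library 1 and 48.5 TPM in library 2. Intron share was higher in library 2 as well, and its part in these values was not tested.

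The 10 genes most above in library 2, among detected genes with a mean of at least 100 exon reads, were Akp3, Alpi, Apob, Ada, Mgam, Fcgbp, Myo18b, Gm26584, Gm26742 and B830012L14Rik. Akp3, Alpi and Mgam encode enzymes of the intestinal brush border. Akp3 had 0.802 TPM in library 1 and 65.7 TPM in library 2, a CPM ratio of library 2 over library 1 of 78.5 (48.8 to 135). Ada, adenosine deaminase, had 1.38 TPM in library 1 and 24.9 TPM in library 2. The smallest of the 10 ratios was that of B830012L14Rik, at 8.96 (6.23 to 13.2), and neither Gm26584 nor Gm26742 had unique exon reads.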

How the data were processed

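RNA from isolated islets was sequenced, and the Flox samples were used; the other genotype was not analysed here. The deposited tables hold whole-number counts of exon, intron and junction reads per gene and lane, and the authors' TPM, per the file headers. The submitters' processing notes name mm10 as the build. The sources used here name no aligner and no counter, and whether strand was used is not stated, so reads of overlapping antisense genes may be mixed. The authors' TPM was used for 1 alternative; other TPM values were computed from summed exon reads and the exon length of the tables.

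Lanes were summed by gene identifier. Exon reads totalled 21938244 in library 1 and 14069569 in library 2. Detected genes had at least 10 exon reads in both libraries. The 2-fold count used CPM. TMM factors came from edgeR 4.0.16 and size factors from DESeq2 1.42.0 in R 4.3.3, as alternatives only; other steps used Python 3.11.15 with pandas 2.3.3 and scipy 1.17.1. Of 455 list entries, 453 matched. Gene lists, members and alternatives were chosen with earlier results of these data known. Named genes were drawn from the 20 highest by reads and by TPM, all hormones, the 4 highest and the defining members of each list, the 10 most above in each library with a mean of at least 100 exon reads, and the 10 highest and lowest intron shares among protein-coding genes with at least 1000 exon plus intron reads in each library and an exon length below the gene span. Promoter windows come from the RefSeq table of GRCm38.p6.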

Additional observations from a re-analysis of the deposited data

How the results depend on the processing

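Beside leaving out a library, the 9 summary values were recomputed 53 times, and 40 of these moved by less than the SD between the libraries or, for counts, by less than 1.5 times. The cause of the others was not tested. For the intron share, its median and the acinar share the SD was wide (10.1, 18.2 and 0.493 percentage points), so few changes could pass it. Without genes that have no annotated exon and the 2 nuclear ribosomal RNA genes, the intron share of library 1 fell from 28.8% to 14.0%. This still counted as less than the SD, so the count of 40 does not show that these values are stable. The share of the 10 most-read genes (27.0%) has a small SD, 0.185, and moved to 28.5% on unique reads, 26.8% on lane 1, 27.3% on lane 2, 27.3% without mitochondrially encoded genes and 50.4% per TPM. The insulin share (19.3%) moved to 21.1% on unique reads and 35.7% per TPM. The ratio of Ins2 to Ins1 (2.22) moved to 1.72 with TPM made here and 1.72 with the authors' TPM. The median intron share per gene (25.9%) moved to 7.16% when reads were divided by intron and exon bases (2.82% in library 1 and 11.5% in library 2). The count of genes past 2-fold (1077) moved to 3005 with at least 1 exon read in both libraries, 464 with at least 50, and 448 with a mean of at least 100, the last chosen after seeing the data; with TMM, DESeq2, totals without insulin or TPM it was 1059, 1060, 1124 and 1153. Of the genes past 2-fold, 32.5% were higher in library 1 by CPM and 27.0% by TPM. Leaving out each library, which with 2 libraries returns the other one's value and shows no stability, gave 26.9 to 27.1% for the 10 most-read genes, 18.3 to 20.4% for insulin, 2.19 to 2.25 for the ratio, 79.6 to 85.4% for insulin among hormones, 0.253 to 0.951% for acinar genes, 28.8 to 43.1% for intron share and 13.0 to 38.8% for its median. No paired analysis was possible because 1 group of 2 libraries was described. Acinar share and intron share thus rest on which library is read.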

Other observations

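Many genes of the intestinal epithelium were read in library 2 and nearly absent from library 1. The list of 23 was written after their values were seen, so it is a description. Akp3, an intestinal alkaline phosphatase, had 17 exon reads in library 1 and 856 in library 2, and its relative Alpi had 13 in library 1 and 330 in library 2. Apob and Apoa4, apolipoproteins of chylomicrons, had 40 and 2 exon reads in library 1 and 665 and 722 in library 2. The keratin Krt20 had 0 exon reads in library 1 and 162 in library 2, and the fatty acid binding protein Fabp1 had 0 in library 1 and 38 in library 2. The brush border genes Vil1 and Anpep did not follow: Vil1 had 83.7 TPM in library 1 and 69.3 TPM in library 2, and Anpep had 101 TPM in library 1 and 76.8 TPM in library 2. The intestinal transcription factors Cdx1 and Cdx2 had 0 exon reads in library 1 and 2 each in library 2. Over the whole list, exon reads were 7374 in library 1, most of them from Anpep and Vil1, and 7438 in library 2. In all, 7 of the 23 were detected in both libraries, and 5 of these were at least 2-fold higher in library 2, where 5.27% of all detected genes were. Since the list was chosen from these values, that count was set in advance and is not a result. Acinar genes were higher in library 2 as well.

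Among genes of energy supply, the 107 nuclear genes of the respiratory chain held 1.07% of TPM in library 1 and 0.842% in library 2. Of these, 102 were detected, with a median log2 ratio of library 1 over library 2 of 0.35. None of the 102 passed 2-fold in CPM, against 7.80% of all detected genes, a share that is lower among well-read genes, as given above. The 13 mitochondrially encoded genes held 10.04% of TPM in library 1 and 7.78% in library 2. Of these, mt-Co2 and mt-Co3, subunits of cytochrome c oxidase, had almost no unique reads, so their levels depend on how shared reads were placed. Glycolytic genes were steady, with 18 of 18 detected and a median log2 ratio near 0 (-0.0059), and Pkm, pyruvate kinase, led them with 382 TPM in library 1 and 408 TPM in library 2.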
